A study of Mus musculus with 8 samples.

Results

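The 51 genes described here are interferon response genes, chosen by symbol from a fixed list of interferon receptors, interferon-responsive transcription factors, nucleic acid sensors and induced effectors. All 51 were present among the 19909 genes measured by bulk RNA sequencing of mouse haematopoietic stem cells (HSCs). By role they comprised 4 receptor chains, 5 transcription factors, 6 sensors, 20 antiviral effectors, 2 genes of the ISG15 system, 9 inducible GTPases and 5 other induced genes. Every mouse carried the genotype Gfplc3/Gfplc3, a reporter in which green fluorescent protein (GFP) is joined to LC3. LC3 coats autophagosomes and is consumed with them, so GFP falls as autophagy proceeds. The young group held 2 libraries of unfractionated HSCs from mice of 8 to 12 weeks. The HSCs of old mice, aged over 24 months, were divided by GFP: the dimmest 33% are called AThi (high autophagy, 3 libraries) and the brightest 33% ATlo (low autophagy, 3 libraries). The cells came from bone marrow at steady state, with no interferon or infection given per the labels, and the labels do not name the promoter that drives the reporter. Since no young cells were sorted by GFP, age and the gate cannot be told apart in a comparison of either old fraction with young. In bulk RNA, fewer cells that express a gene and less RNA per cell cannot be told apart either.

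Interferons are cytokines of antiviral defence. Type I interferons bind the receptor made of Ifnar1 and Ifnar2, and interferon gamma binds the receptor made of Ifngr1 and Ifngr2. Signals from the former activate a complex of STAT proteins with Irf9 that binds the interferon-stimulated response element (ISRE), while interferon gamma activates STAT dimers that bind the gamma-activated sequence (GAS). Both kinds of signal can activate quiescent HSCs, and a set of interferon-stimulated genes is known to be transcribed in stem cells without infection.

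Many promoters of the interferon response genes hold these elements in their letters. RefSeq promoter sequences (build GRCm38.p6, 250 bases before to 50 after each start) matched 42 of the 51 members. The ISRE was searched as GAAA followed by any 2 bases and a second GAAA, or as TTTC, any 2 bases and TTTC when read on the opposite strand, and the GAS as TTCNNNGAA, which reads the same on both strands. Overlapping matches were kept. An ISRE match was found in 22 of the 42 members (52.4%), against 3.99% of all 27025 genes in the table, counting a gene once if any of its promoters matched. A GAS match was found in 15 of the 42 (35.7%), against 9.55% of all genes, and both were found in 8 (19.0%), against 0.540%. A match describes the letters in this window and is not evidence of a bound site. Printed below, 5′ to 3′ on the strand of the gene and with the matches in capitals, are stretches upstream of the start. They are given for 2 genes that were higher in AThi than in ATlo (Ifit1 and Gbp5). Stretches of 4 GTPases (Igtp, Irgm2, Irgm1 and Gbp7) follow, whose counts were highest in the same pair of old libraries. Isg15 is added as a gene whose elements lie back to back, and Ifngr1 and Ifitm1 as 2 called genes without a match.
Ifit1 (chr19:34640769-34640829, plus strand): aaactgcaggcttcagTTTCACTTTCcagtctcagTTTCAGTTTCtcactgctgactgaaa
Gbp5 (chr3:142496754-142496904, plus strand): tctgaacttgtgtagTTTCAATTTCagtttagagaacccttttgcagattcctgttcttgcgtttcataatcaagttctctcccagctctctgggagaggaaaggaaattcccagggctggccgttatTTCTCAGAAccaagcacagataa
Igtp (chr11:58199496-58199555, plus strand): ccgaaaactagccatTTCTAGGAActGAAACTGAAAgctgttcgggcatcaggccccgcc
Irgm2 (chr11:58214887-58214946, plus strand): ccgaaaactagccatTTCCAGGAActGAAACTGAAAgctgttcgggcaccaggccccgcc
Irgm1 (chr11:48871421-48871480, minus strand): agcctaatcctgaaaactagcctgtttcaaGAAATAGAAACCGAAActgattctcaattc
Gbp7 (chr3:142530216-142530305, plus strand): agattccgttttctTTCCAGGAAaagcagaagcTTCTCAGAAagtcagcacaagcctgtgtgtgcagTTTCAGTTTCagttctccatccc
Isg15 (chr4:156200849-156200908, minus strand): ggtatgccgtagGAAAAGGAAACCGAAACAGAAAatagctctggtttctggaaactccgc
Ifngr1 (chr10:19591849-19591948, plus strand): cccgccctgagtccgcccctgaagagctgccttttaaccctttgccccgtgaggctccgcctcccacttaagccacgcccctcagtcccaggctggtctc
Ifitm1 (chr7:140967976-140968075, plus strand): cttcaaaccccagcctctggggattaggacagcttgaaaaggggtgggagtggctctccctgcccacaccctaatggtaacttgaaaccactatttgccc
The windows of Igtp and Irgm2, neighbours on chromosome 11, were identical at 58 of 60 bases and carried a GAS followed directly by an ISRE. Ifit1 carried 2 ISRE matches. Gbp7 carried 2 GAS matches ahead of 1 ISRE. In Isg15, 3 overlapping ISRE matches formed 1 run.

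The files give a normalized count per gene and library, which is the read count divided by 1 factor per library. Total reads lay between 33960216 and 45830216 in the AThi libraries, 54512285 and 61341946 in the ATlo libraries, and 44021141 and 45590508 in the young libraries, so every ATlo library was deeper than every other. The file headers tag the libraries D11 and D12 for young and O10, O11 and O12 in each old fraction, and per-library values are given in that order. The labels state that AThi and ATlo were paired, and same-tag libraries deviated together from their group means over 13611 genes (correlations of 0.21, 0.16 and 0.37). Tags ending in 11 and 12 occur in both ages, so a tag is no name of 1 mouse across ages, and what else its libraries share, such as a sort day, is not given here. All 10 fixed HSC markers were measured, and their summed normalized counts ranged from 116015 to 117666 for young, from 113999 to 139861 for AThi and from 84846 to 106768 for ATlo. The 3 libraries with tags ending in 12 stood apart in B cell genes. The 5 measured markers of a list of 10 (Cd79a, Cd79b, Ighm, Ebf1 and Vpreb3, none at 0 throughout) summed to 10785 in young, 23977 in AThi and 10148 in ATlo with that tag, and to 636 to 989 in the other 5 libraries. Summed megakaryocyte markers (9 of 10 measured, most of the sum being Itgb3, Selp and Vwf) lay between 22429 and 33728 in old libraries and between 7466 and 9223 in young. Of the 9, DESeq2 called 5 higher in AThi than in young and 8 in ATlo, while Ppbp had log2 values of -2.04 and -0.89 without a call. Summed granulocyte markers (8 of 10 measured, most of the sum in most libraries being Prtn3) lay between 4094 and 6992 in old libraries and between 2687 and 2826 in young. Erythroid markers (8 of 10 measured) lay between 678 and 3004 in old libraries and between 2446 and 3434 in young. Summed dendritic markers (5 of 10 measured, most of the sum being Tcf4) lay between 12045 and 15475 in AThi and 8935 and 10415 in ATlo. T and NK markers (4 of 10 measured) lay between 2204 and 3257 in AThi and 1417 and 1703 in ATlo, with most of the AThi sum being Klrb1c, while Nkg7 had a log2 value of -0.54 in AThi against ATlo. Monocyte markers (6 of 10 measured, most of the sum being Lyz2) lay between 8729 and 10706 in all libraries, so this sum hides the genes with low counts. Csf1r had 253 in young, 422 in AThi and 213 in ATlo with tags ending in 12, and 23.6 to 117 in the other libraries. Adgre1 had 229, 73.2 and 141 in the same 3 libraries and was lower in every other library. Lyz2, Ms4a6c, Cd14 and F13a1 did not set these libraries apart. The part of these lists in the results below was not tested.

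Most of the interferon response genes were well expressed in HSCs. Their median base mean, the mean normalized count over the 8 libraries, was 1713, with a median of 349.9 over all genes, and 46 of the 51 members had a base mean of 100 or more. The other 5 were Ifit3, Ifit3b, Mx1, Mx2 and Oasl1, all antiviral effectors. Per kilobase of exon, the highest mean level was that of Ifitm3 (21080 normalized counts per kb), followed by Ifitm1 (11061) and Ifitm2 (7923), which encode small membrane proteins that block virus entry. The GTPases Ifi47 (2979), Igtp (1947) and Irgm2 (1582) came next, and the lowest was Mx1 (4.26), a dynamin-like GTPase that traps viral ribonucleoproteins. In 268 exon bases, 40.9% of its length, Ifitm2 overlaps a gene model on the same strand, so its level is uncertain.

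**Figure D1:**
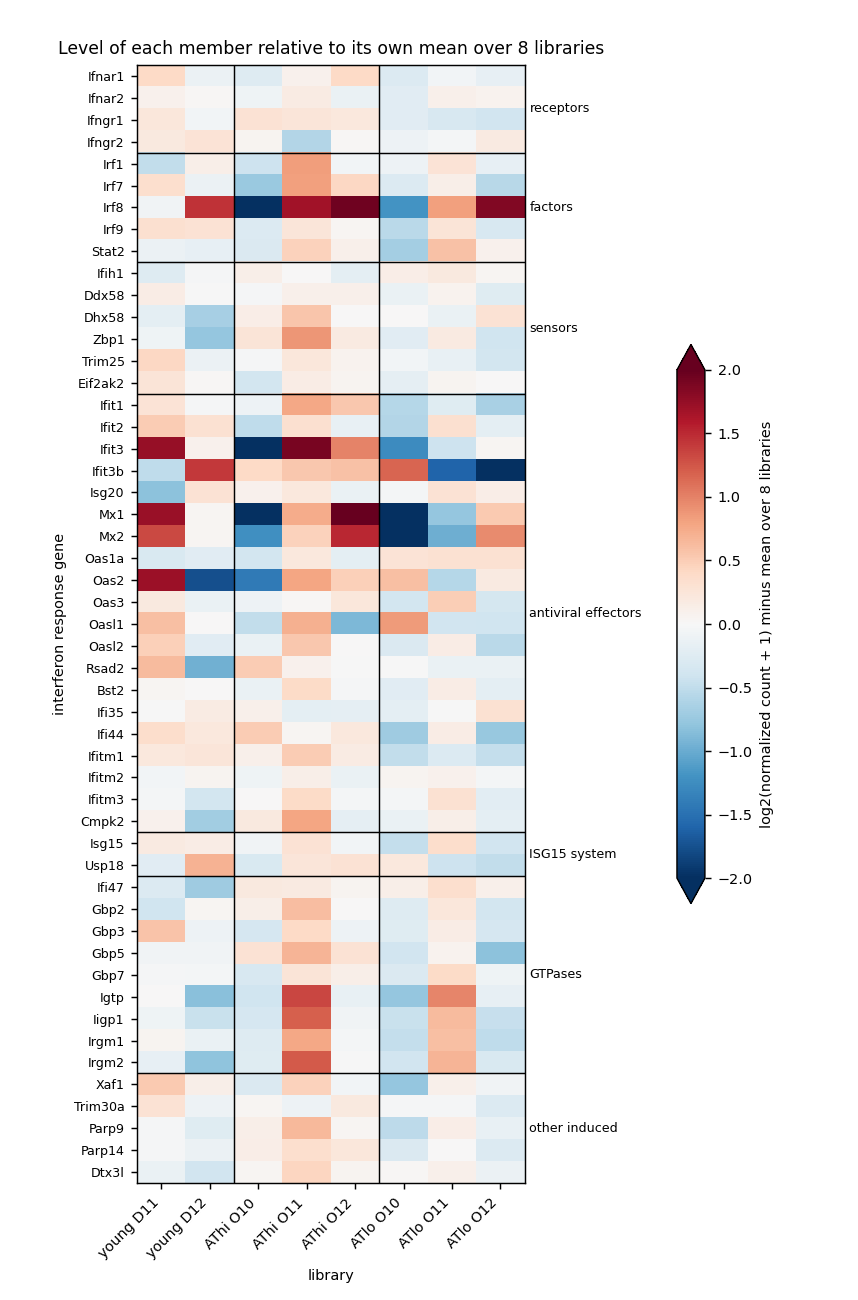
Heat map of the 51 interferon response genes (rows, grouped by role) in the 8 libraries (columns), coloured by log2(normalized count + 1) minus the mean of that gene over the libraries, with the scale capped at 2 in each direction. Igtp, Iigp1, Irgm1 and Irgm2 are red in both old libraries tagged O11, and the rows that swing most, such as Irf8, Ifit3, Mx1 and Oas2, have low counts.

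In old HSCs, 5 interferon response genes were higher in AThi than in ATlo and none was lower in the authors' deposited table (DESeq2 Wald test, adjusted p under 0.05). A DESeq2 refit with the group as its only term gave the same 1414 calls over all genes, so the deposited test does not use the pairing. The 5 were Ifngr1, a chain of the interferon gamma receptor, the antiviral effectors Ifit1 and Ifitm1, the guanylate-binding protein gene Gbp5 and the ADP-ribosyltransferase gene Parp14. On GRCm38 they lie at chr10:19591949-19610229, chr19:34640871-34650009, chr7:140967221-140969825, chr3:142493978-142522344 and chr16:35832874-35871544, in that order. They were 5 of 50 members with an adjusted p, against 3.47% of all genes tested called higher. Of all genes tested, 4.43% were called lower. No member was lower even at an unadjusted p under 0.05, since the 8 members past that threshold (18.0% of all genes) were all higher. The members' median log2 fold change was 0.26, against 0.03 over all genes, and 42 of 51 had a value above 0, as had 52.5% of all genes. The quasi-likelihood test of edgeR on the recovered reads called 1 member higher, Ifitm1, where it called 0.301% of all genes higher, and 0 lower (1.11% of all genes). At an unadjusted p under 0.05 it gave 6 members, all higher (15.4% of all genes). With the tag as a replicate block, DESeq2 called 10 members higher (5.12% of all genes), the same 5 with Oasl2, Ifi44, Gbp2, Irgm2 and Parp9, while edgeR with the block called Ifitm1 alone (0.402% of all genes). Neither blocked fit called a member lower, where DESeq2 called 5.26% and edgeR 1.12% of all genes lower.

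**Figure D2:**
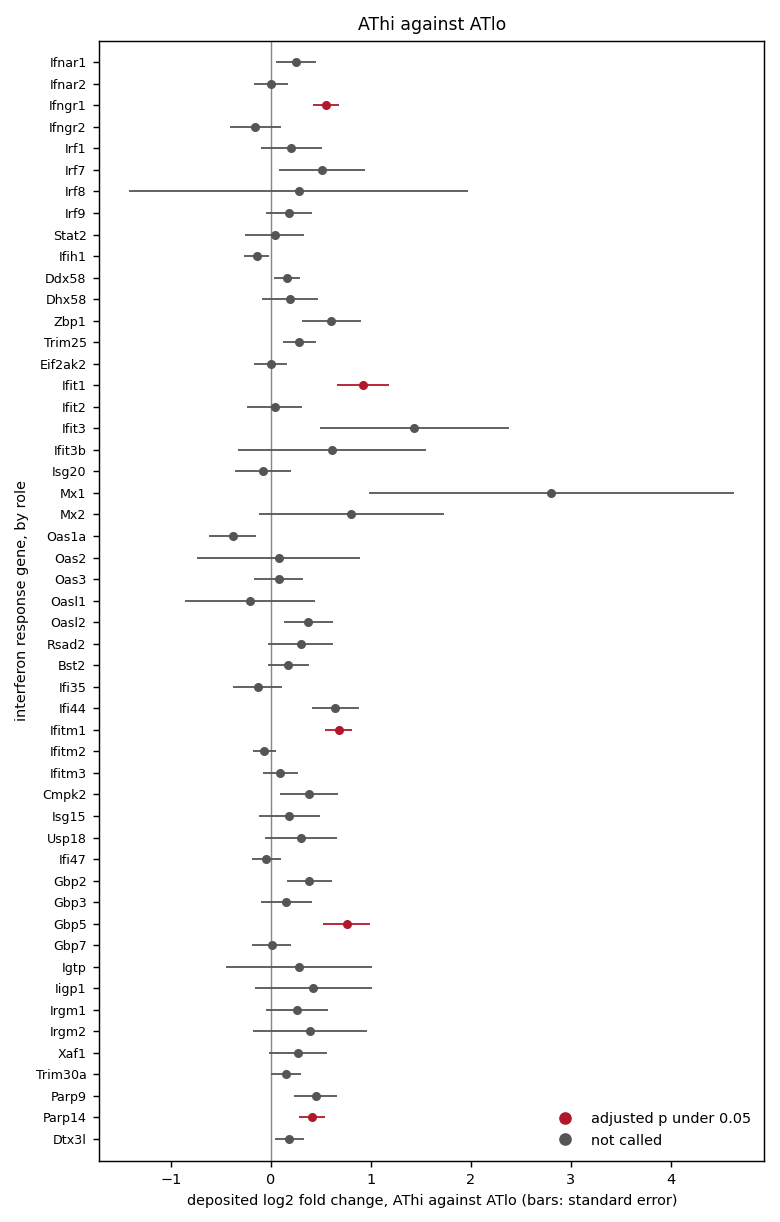
Log2 fold change of AThi against ATlo for each interferon response gene in the authors' deposited table (x axis), by role (y axis), with bars of 1 standard error and called genes in red. The 5 red points lie between 0.41 and 0.92, and most of the grey points lie right of 0.

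Among the receptors, Ifngr1 stood apart from the other three. Its normalized counts were 3443, 3302 and 3264 in AThi and 2404, 2257 and 2155 in ATlo, with 3285 and 2689.7 in young. All AThi values lay above all ATlo values, with young D11 among the AThi values and young D12 between the fractions. In the authors' deposited table Ifngr1 was 1.47-fold higher in AThi (log2 0.55 ± 0.13, where ± gives the SE of a log2 value throughout, adjusted p = 8.7e-04 by DESeq2). The edgeR adjusted p was 0.0634. Its partner chain Ifngr2 had 515, 331 and 504 in AThi, 459.6, 485 and 559 in ATlo and 565 and 602 in young, and the old groups overlapped, with the AThi library tagged O11 lowest. Ifnar1 had 2418, 3061 and 3798 in AThi, 2399.5, 2785 and 2592 in ATlo and 3799 and 2658 in young. Ifnar2 had 1250.0, 1489 and 1205 in AThi, 1128, 1421 and 1385 in ATlo and 1400.3 and 1353 in young. These chains of the type I receptor overlapped between the fractions, with log2 fold changes of 0.26 ± 0.20 and 0.00 ± 0.17 in the authors' deposited table, and for Ifngr2 the value was -0.16 ± 0.25 (adjusted p = 0.541, 0.995 and 0.825 by DESeq2, in that order). On the per-kilobase scale Ifngr1 had the highest mean level of the 4 receptor chains, at 1001 normalized counts per kb, then Ifnar1 at 495, Ifnar2 at 399 and Ifngr2 at 133.

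None of the 5 transcription factors passed the deposited test in any of the 3 contrasts. In AThi against ATlo the authors' deposited log2 values were 0.20 ± 0.30 for Irf1, a factor that drives genes of the interferon gamma response, 0.51 ± 0.43 for Irf7, which amplifies type I interferon production, 0.18 ± 0.23 for Irf9 and 0.04 ± 0.29 for Stat2, the partners in the ISRE-binding complex. Stat2 had 1446, 2433 and 1887 normalized counts in AThi, 1100.0, 2639 and 1879 in ATlo and 1621 and 1579.8 in young. Irf9 had 1443, 2081 and 1794 in AThi, 1199, 2085 and 1401 in ATlo and 2177 and 2144 in young. Both young Irf9 values lay above every old value, yet the test of either fraction against young was not passed (adjusted p = 0.759 for AThi and 0.395 for ATlo by DESeq2 in the authors' deposited tables). Without ATlo O11, Irf9 was called lower in ATlo (log2 -0.73 ± 0.23, adjusted p = 0.0444 by DESeq2). Irf1 had 1229.5, 2939 and 1587 in AThi, 1538, 1991 and 1466 in ATlo and 1165 and 1787 in young, with the AThi library tagged O11 highest. Irf7 had 155, 459 and 345 in AThi, 215, 281 and 177 in ATlo and 330.3 and 241 in young, and the same library was again highest. Irf8, a factor of myeloid, dendritic and B cells, had 0, 284 and 340.0 in AThi, 37.7, 156 and 319.5 in ATlo and 84.1 and 241 in young. It was highest, within each group, in the library whose tag ends in 12. Those libraries also held the B cell genes and the highest counts of Csf1r and Adgre1, and the part of these in the Irf8 values was not tested. AThi O11, with 284 for Irf8, had a B cell marker sum of 879 and a Csf1r count of 117. The 0 of Irf8 in AThi is a count of 0 reads, which allows up to 3.

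Of the 6 sensors, none was called between AThi and ATlo, although the fractions did not overlap for Zbp1 and Trim25. Zbp1, which senses left-handed nucleic acid helices and can trigger cell death, had 736, 1143 and 701 normalized counts in AThi, 527, 699 and 468 in ATlo and 581 and 360.1 in young. Its deposited log2 value was 0.61 ± 0.30 (adjusted p = 0.232, DESeq2). Trim25, a ubiquitin ligase that acts on the RNA sensor encoded by Ddx58, had 4299, 5131 and 4607 in AThi, 4199, 3931 and 3394 in ATlo and 5815 and 4026 in young (adjusted p = 0.357, DESeq2, in the authors' deposited table). The lowest AThi value of each gene lay just above the highest ATlo value. Ifih1, a sensor of long double-stranded RNA, was the most abundant sensor per kilobase (983 normalized counts per kb). It had 8640.5, 7990.4 and 6959 in AThi, 8735, 9131 and 8163 in ATlo and 6713 and 7873 in young. Each AThi value of Ifih1 was below the ATlo value with the same tag, a direction that only Oas1a shared in every pair among the members, and 2 of 51 is 3.92% against 19.4% of all genes. Ddx58, Dhx58 and Eif2ak2 had deposited log2 values of 0.16 ± 0.13, 0.19 ± 0.28 and -0.00 ± 0.16.

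Among the 20 antiviral effectors, Ifit1 and Ifitm1 were called higher in AThi than in ATlo. Ifit1, which binds foreign RNA caps, had 767, 1416 and 1205 normalized counts in AThi, 556, 700.2 and 529 in ATlo and 998 and 812 in young. The lowest AThi value, of the library tagged O10, lay close to the highest ATlo value and below both young values. In the authors' deposited table the gene was 1.90-fold higher in AThi than in ATlo (log2 0.92 ± 0.26, SE, adjusted p = 0.00962 by DESeq2). By edgeR the adjusted p was 0.116, and without the libraries tagged 11 the DESeq2 value was 0.174. Ifitm1 had 12672, 16779 and 13167 in AThi, 8402, 9738 and 8482 in ATlo and 13694 and 13875 in young. The AThi and young values overlapped, and all 3 ATlo values lay below every other library. Ifitm1 was 1.60-fold higher in AThi than in ATlo in the authors' deposited table (log2 0.68 ± 0.14, SE, adjusted p = 4.5e-05 by DESeq2), with an edgeR adjusted p of 0.0378. That edgeR value was the highest adjusted p of this gene over every setting and left-out library tried, so Ifitm1 was called in each of them. Its relatives Ifitm3 and Ifitm2 had log2 values of 0.10 ± 0.17 and -0.06 ± 0.12 in the same table, and neither was called.

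The fractions also did not overlap for Rsad2 and Oas1a. Rsad2, which encodes viperin, a radical enzyme that makes a chain-terminating nucleotide, had 1938, 1450.1 and 1367 in AThi, 1365, 1248 and 1256 in ATlo and 2132 and 705 in young. The young libraries lay on either side of the old ones, and the deposited test was not passed (log2 0.30 ± 0.33, adjusted p = 0.704 by DESeq2). Against young, Rsad2 was called higher in AThi without young D11 (log2 1.17 ± 0.28, adjusted p = 0.00206 by DESeq2), while without young D12 its log2 value was -0.43 ± 0.27 (adjusted p = 0.632 by DESeq2), so its direction turned on the young library used. Oas1a, a synthetase of the 2′-5′ oligoadenylates that activate RNase L, was the only member whose AThi values all lay below its ATlo values. It had 376, 562 and 423 in AThi, 581, 595 and 599 in ATlo and 389.6 and 413 in young (log2 -0.38 ± 0.23, adjusted p = 0.384 by DESeq2 in the authors' deposited table). Over all members, AThi lay wholly above ATlo in 8 of 51, against 10.3% of all genes, and wholly below in 1, against 10.9%. Within tags, AThi exceeded ATlo in 3 of 3 pairs for 24 of 51 members, against 21.1% of all genes.

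Of the effectors with low counts, Ifit3 had 5.85, 218 and 115 normalized counts in AThi, 23.6, 42.9 and 59.1 in ATlo and 195 and 61.2 in young. Ifit3b had 57.1, 62.8 and 64.9 in AThi, 97.4, 13.5 and 10.1 in ATlo and 30.1 and 116 in young. These near copies share 51.2% and 44.5% of their exon stretches of 50 bases, and the higher of the pair differed between libraries: it was Ifit3b in AThi O10, ATlo O10 and young D12, and Ifit3 in the other 5 libraries. How the reads were divided between them is uncertain. Their deposited log2 values were 1.44 ± 0.95 and 0.61 ± 0.94, with no call. Mx1 had 0, 11 and 76.4 in AThi and 0, 3.18 and 9.33 in ATlo, and received no adjusted p in the authors' deposited table for this contrast.

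In the ISG15 system, Isg15, a ubiquitin-like modifier, and Usp18, the protease that removes it, were not called between the fractions. Isg15 had 370.3, 478 and 376 normalized counts in AThi, 280.5, 497 and 300.1 in ATlo and 443 and 434 in young, and the groups overlapped. The deposited log2 values were 0.18 ± 0.30 for Isg15 and 0.30 ± 0.36 for Usp18.

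Among the 9 GTPases, a class of regulators and effectors at the membranes around intracellular pathogens, Gbp5 was called higher in AThi than in ATlo. Its normalized counts were 1628, 2136 and 1638 in AThi, 1029, 1407 and 759 in ATlo and 1274 and 1279.9 in young. All AThi values lay above all others, and the ATlo values lay on both sides of the young ones. In the authors' deposited table Gbp5 was 1.69-fold higher in AThi than in ATlo (log2 0.76 ± 0.24, SE, adjusted p = 0.0244 by DESeq2), and by edgeR the adjusted p was 0.153. The other 8 GTPases had deposited log2 values between -0.05 (Ifi47) and 0.42 (Iigp1). Gbp7, at 6461, 9634 and 8669 in AThi, 6543, 10467 and 7600.0 in ATlo and 7874 and 7781 in young, overlapped between the fractions (log2 0.01 ± 0.20). Gbp3, with which it shares 2.24% of its 50-base stretches, had 1058, 1774 and 1251 in AThi, 1128, 1476 and 1060.4 in ATlo and 1982 and 1251 in young (log2 0.16 ± 0.26).

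Of the 5 other induced genes, Parp14 was the one called. It had 5616, 6492 and 6011 normalized counts in AThi, 4191, 5163 and 4246 in ATlo and 5066 and 4736 in young. All AThi values lay above all others. In the authors' deposited table Parp14 was 1.33-fold higher in AThi (log2 0.41 ± 0.13, SE, adjusted p = 0.0241 by DESeq2), and by edgeR the adjusted p was 0.135. Parp9 and Dtx3l, which encode a macrodomain protein and the ubiquitin ligase it pairs with, had log2 values of 0.45 ± 0.22 and 0.19 ± 0.15 in that table and were not called. The exons of these genes overlap on opposite strands by 458 bases, and no source used here says whether the counting used strand. Dtx3l had 7676, 10053 and 7744 in AThi, 7562, 7974 and 6844 in ATlo and 6805 and 5709 in young, with both young values below every old one.

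**Figure D3:**
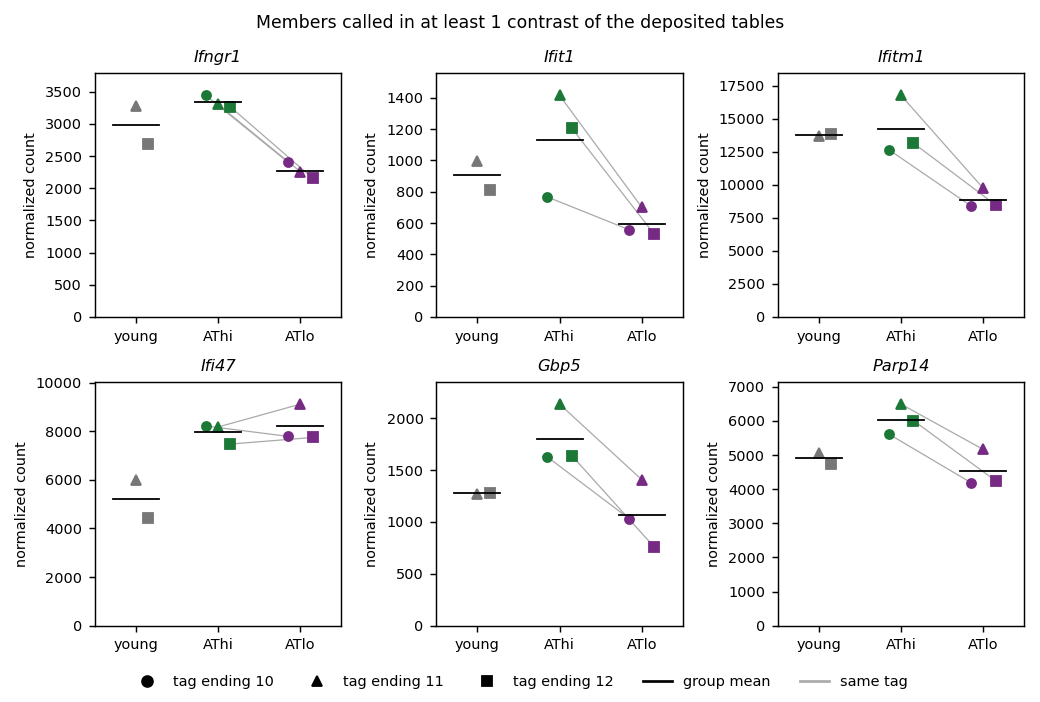
Normalized counts (y axis, from 0) of the 6 interferon response genes called in at least 1 deposited contrast, by group (x axis), with 1 point per library shaped by its tag, black bars for group means and grey lines joining AThi and ATlo of the same tag. Ifngr1, Ifitm1, Gbp5 and Parp14 are lower in ATlo than in AThi along each line, as is Ifit1, while Ifi47 is higher in both old fractions than in young.

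Most of these calls were lost without particular libraries. Without the libraries tagged 12, which hold the B cell genes, DESeq2 called Ifitm1 alone. Without the libraries tagged 11 it called 3 members, Gbp5, Ifitm1 and Ifi44, and the adjusted p of Gbp5 was 0.0477. Leaving out AThi O11, ATlo O10 or ATlo O12 left 2 calls, Ifitm1 and Ifngr1, and leaving out AThi O12 left 3, those with Gbp5. Every call was kept without AThi O10, and Ifi44 was added without ATlo O11. Without the libraries tagged 12, log2 values were 0.53 ± 0.19 for Ifngr1, 0.37 ± 0.18 for Parp14, 0.80 ± 0.36 for Ifit1 and 0.63 ± 0.27 for Gbp5. Fits without a tag hold fewer samples, and the part of the B cell genes in the lost calls was not tested. The median log2 fold change of the members was 0.05 without AThi O11. The ratio of AThi to ATlo within tags O10, O11 and O12 was 1.51, 1.72 and 1.55 for Ifitm1, 1.43, 1.46 and 1.51 for Ifngr1 and 1.34, 1.26 and 1.42 for Parp14. For Ifit1 it was 1.38, 2.02 and 2.28 and for Gbp5 1.58, 1.52 and 2.16, a wider spread.

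Few interferon response genes passed the deposited test between old and young HSCs. In the authors' deposited tables, 1 of 51 members was higher in AThi than in young (3.13% of all genes tested) and 0 were lower (1.91%), by the DESeq2 Wald test at an adjusted p under 0.05. Without young D11, 2 members were called higher in AThi, namely Ifi47 and Rsad2, and without young D12, 0 were. At an unadjusted p under 0.05 there were 5 members, all higher (13.8% of all genes). In ATlo against young, 1 of 50 members was higher (2.37%) and 1 lower (1.98%), and 6 members passed an unadjusted p of 0.05 (14.3% of all genes). Of these, Oas1a and Ifi47 were higher, and Ifit1, Ifi44, Ifitm1 and Ifngr1 were lower. The edgeR test called 0 members in either contrast, with 0.844% of all genes higher and 0.362% lower for AThi, and 0.467% and 0.186% for ATlo. It gave 4 members at an unadjusted p under 0.05 in each (11.6% and 12.1% of all genes). All AThi values lay above both young values in 7 members (13.7% of all genes) and below them in 2 (14.0%), and all ATlo values above in 5 (15.7%) and below in 8 (15.1%). Median log2 fold changes of the members were 0.08 for AThi and -0.14 for ATlo against young, where all genes had -0.00 and 0.01. Values were above 0 in 30 of 51 members for AThi and 19 for ATlo, against 49.9% and 50.5% of all genes. These contrasts share the 2 young libraries, so they are not independent of each other.

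The gene higher in both old fractions was Ifi47, an interferon gamma inducible GTPase (chr11:49076587-49096974). It had 8217, 8177 and 7474 normalized counts in AThi and 7791, 9117 and 7745 in ATlo, but 5996 and 4423 in young. Every old library lay above both young ones, and the fractions overlapped. In the authors' deposited tables Ifi47 was 1.53-fold higher in AThi than in young (log2 0.61 ± 0.16, SE, adjusted p = 0.00557, DESeq2). In ATlo it was 1.58-fold higher (log2 0.66 ± 0.16, SE, adjusted p = 0.00269, DESeq2). By edgeR the adjusted p were 0.115 and 0.118, and without the libraries tagged 12 the DESeq2 values were 0.293 and 0.213. Without young D12 both calls of Ifi47 were lost, with 0 members then called higher in AThi and Isg20 alone in ATlo (log2 0.95 ± 0.29, adjusted p = 0.0375 by DESeq2). Summed granulocyte and megakaryocyte markers, the latter mostly Itgb3, Selp and Vwf, were also higher in every old library than in both young ones. Their part in the value of Ifi47 was not tested. Per kilobase the mean level was 2979 normalized counts per kb. The exons of Ifi47 share 111 bases with Olfr56 on the same strand.

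Ifitm1 was the member that fell in ATlo against young. Its log2 value was -0.64 ± 0.15 (SE, adjusted p = 0.00193, DESeq2) in the authors' deposited table, and 0.04 ± 0.15 for AThi. The edgeR adjusted p for ATlo was 0.102. Without ATlo O11, 3 members were called lower in ATlo, namely Ifitm1, Ifi44 and Irf9. The call of Ifitm1 was lost without either young library and without the libraries tagged 12 (adjusted p = 0.13 by DESeq2). Ifi44, an effector whose biochemical role is little known, had 2123, 3829.8 and 2039.9 in ATlo, 4927, 3576 and 4005 in AThi and 4446 and 4021 in young, with 2 of the 3 ATlo libraries below every other library. It was not called in the authors' deposited tables (adjusted p = 0.0711 against AThi and 0.152 against young by DESeq2), was chosen for mention after its values were seen, and was called lower in ATlo against both AThi and young once the libraries tagged 11 were left out (adjusted p = 1.8e-05 and 0.0179 by DESeq2).

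In many members the old libraries differed more by tag than by GFP gate. In 21 of 51 members both libraries tagged O11 lay above the other 4 old libraries, against 5.54% of all genes. For tag O12 this was so in 2 members (7.02% of all genes) and for tag O10 in 0 (6.33%), and both O10 libraries were the lowest of the old libraries in 11 members (6.52% of all genes). In 0 members were both O11 libraries the lowest (5.97% of all genes). The ratio of the O11 mean to the mean of the other old libraries had a median of 1.26 over the members and 1.001 over all genes. This pattern was noticed in these data and then described in them.

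The immunity-related GTPases Igtp, Irgm2, Iigp1 and Irgm1, which are regulators and effectors at pathogen vacuoles, showed it most. Igtp had 2586, 8658 and 3097 normalized counts in AThi, 1997, 6729.9 and 3054 in ATlo and 3450.0 and 1922 in young. Irgm2 had 4469, 12374 and 5260.3 in AThi, 4062, 8462 and 4306 in ATlo and 4743 and 3027 in young. In both genes the O11 libraries were highest in either fraction, and AThi exceeded ATlo at each tag. Iigp1 had 3119, 9039.8 and 3747 in AThi, 2875, 6123 and 2866 in ATlo and 3720.0 and 2902 in young. Irgm1 had 2553, 5174 and 2956 in AThi, 2176, 4606 and 2130.1 in ATlo and 3153 and 2773 in young. The O11 libraries were on average 2.87-fold above the other old libraries for Igtp, 2.41-fold for Iigp1, 2.30-fold for Irgm2 and 1.99-fold for Irgm1. Igtp and Irgm2 share 162 exon bases on 1 strand and 11.8% and 6.79% of their 50-base stretches, so some reads of this pair cannot be told apart. Iigp1 and Irgm1 shared no such stretch with another member.

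**Figure D4:**
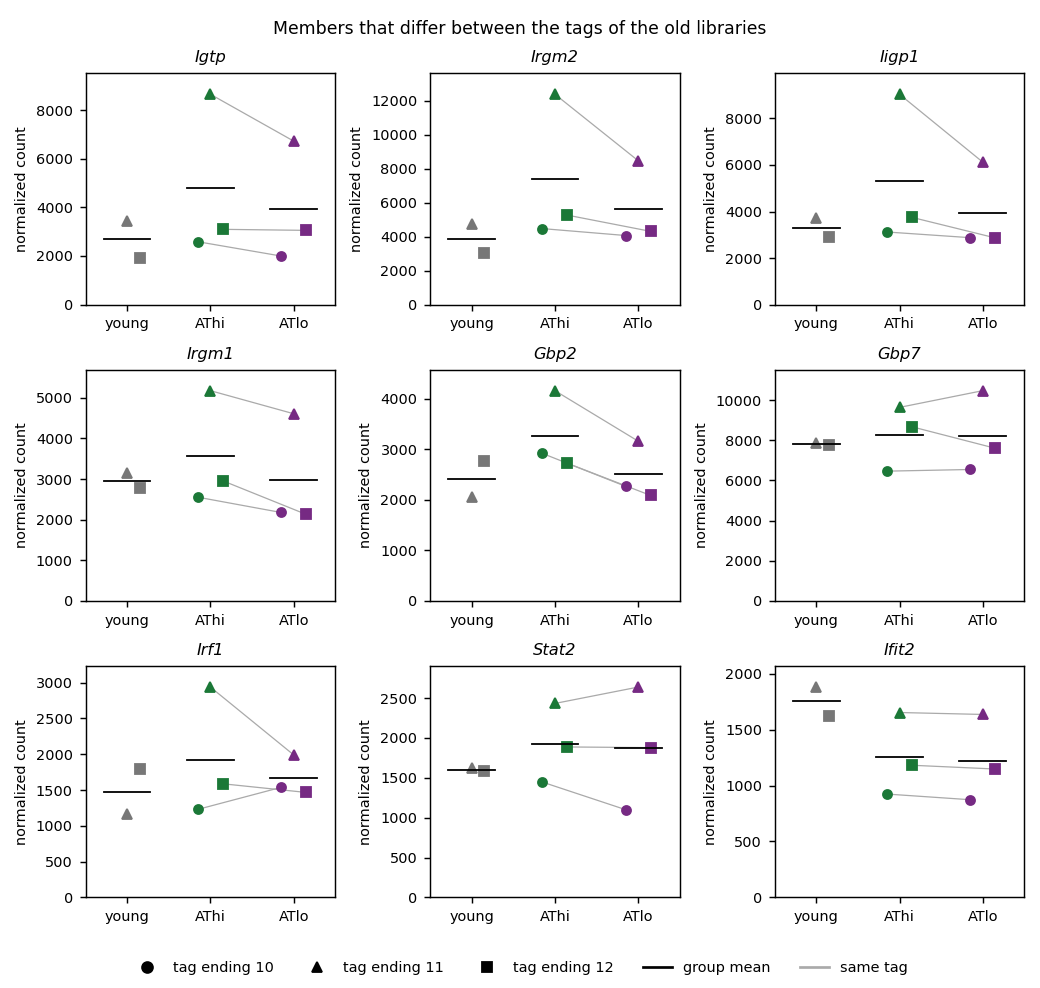
Normalized counts (y axis, from 0) of 9 interferon response genes that a DESeq2 test called between the tags of the old libraries, by group (x axis), 1 point per library shaped by tag, with group means in black and AThi and ATlo of the same tag joined in grey. The triangles of tag O11 are the highest old points in each panel, with a mean 2.87-fold that of the other old points for Igtp.

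The likelihood ratio test of DESeq2 for the tag, over the 6 old libraries with the fraction in the model, called 11 of 50 members (2.97% of all genes). They were Igtp, Irgm2, Iigp1, Irgm1, Gbp2 and Gbp7 among the GTPases, Irf1 and Stat2 among the factors, and the effectors Ifit2, Oasl2 and Ifitm3. The quasi-likelihood test of edgeR called 0 members (0.0201% of all genes), the lowest adjusted p being 0.0731 for Igtp, and gave 20 of 51 at an unadjusted p under 0.05 (8.36% of all genes). In the members with a base mean of 100 or more, the tag took a median of 59.4% of the variation of the old libraries on the log2 scale and the fraction 13.8%, where all such genes had 35.4% and 24.0%. The tag has more levels than the fraction, so its share tends to be larger even without an effect, and the shares of all genes are the reference. By role, the tag took 89.7% in the GTPases and 77.7% in the factors, with 7.55% and 5.81% for the fraction. In the sensors the shares were 39.8% and 37.0%, and in the receptors 49.3% and 19.7%. For Ifngr1 and Ifitm1 the fraction took 96.7% and 84.4% of the variation, but these genes were chosen by their difference between the fractions, so their shares are a description.

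**Figure D5:**
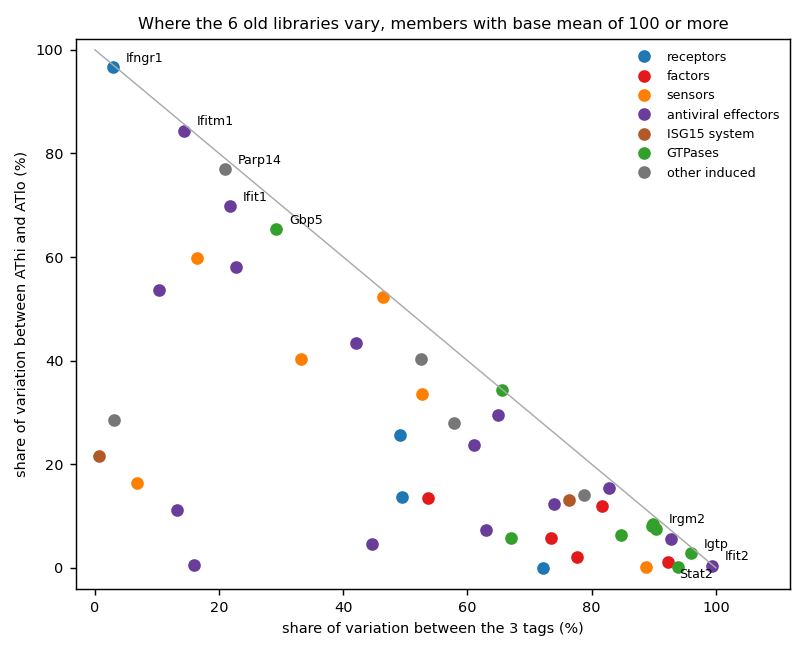
Share of the variation of each interferon response gene among the 6 old libraries that lay between the 3 tags (x axis, %) and between AThi and ATlo (y axis, %), for the 46 members with a base mean of 100 or more, coloured by role. The grey line marks where both add to 100%. Ifngr1 and Ifitm1 sit at the upper left and most GTPases at the lower right.

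The same tag ending was looked at in the young libraries, which entered none of these counts. Young D11 exceeded young D12 in 38 of 51 members, against 49.2% of all genes. The library whose tag ends in 11 was the highest of its group in young, AThi and ATlo alike in 23 of 51 members, against 5.79% of all genes, and the library ending in 12 in 1 member, Irf8, against 7.82%. These counts also require the old libraries to be highest at that tag, so they are not independent of the pattern described above. Only the comparison of young D11 with young D12 is new. Igtp, Irgm2, Iigp1, Irgm1 and Gbp7 were among the 23, as were Isg15, Irf7, Irf9 and Stat2, while Gbp2 and Irf1 were lower in young D11 than in young D12. With 1 young library per tag there is no test of this difference. B cell markers were low in all 3 libraries ending in 11, between 706 and 879 in sum. The sources used here do not say whether a tag stands for a mouse, a sort day or both, so these cannot be told apart.

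Lists of other genes of interferon production, signalling and response held 92 measured genes. In AThi against ATlo, 3 were higher and 2 lower in the authors' deposited table, where 3.47% and 4.43% of all genes were. Gbp4, a guanylate-binding protein gene, had a log2 value of 1.14 ± 0.36, Tlr3, the endosomal sensor of double-stranded RNA, 1.02 ± 0.30, and the Schlafen gene Slfn5 0.74 ± 0.18. The Schlafen gene Slfn9 had -1.40 ± 0.18 and Rnaseh2b, a subunit of the RNase that clears RNA from DNA, -1.48 ± 0.21, and in this contrast these were the only genes of the lists that edgeR called too. In AThi against young, 8 were higher and 3 lower in the authors' deposited table (3.13% and 1.91% of all genes), and in ATlo against young, 6 and 2 (2.37% and 1.98%). The edgeR test called 0 higher and 1 lower for AThi against young, and 0 in either direction for ATlo. By adjusted p in the authors' deposited tables the first for AThi were Rnaseh2b (log2 -1.22 ± 0.23), Phf11d (2.15 ± 0.43), Stat3, which also carries interleukin signals (0.57 ± 0.12), Slfn9 (-0.91 ± 0.21) and Slfn5 (0.84 ± 0.21). Ifnlr1, a chain of the interferon lambda receptor, was next, with 0 and 4.22 normalized counts in young and 23.4 to 183 in AThi. For ATlo they were Irf2bp2, a co-repressor (-0.68 ± 0.15), Phf11d (1.84 ± 0.43), Ifi203 (-0.49 ± 0.13), Uba7, the activating enzyme of ISG15 (0.72 ± 0.19), the immunoproteasome gene Psmb9 (0.49 ± 0.13) and Lgals9, which encodes galectin-9 (0.62 ± 0.18).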

How the data were processed

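About 10000 HSCs gave the RNA of each library (integrity number over 9.0, 2 sort days), read as pairs of 50 bases with 40 M reads as the target, per the labels' protocols. The submitters' processing notes name FastQC, MultiQC, STAR, featureCounts and DESeq2 with build GRCm38; no source used here gives their versions, the annotation or the strand setting. For each of 3 contrasts the authors deposited a base mean and 8 normalized columns (signal), log2 fold changes and their standard errors, the Wald score, and p-values before and after adjustment. Upstream regulators, with an activation score, p-value and log2 ratio, fill another table that the authors deposited. The columns were matched to groups by their headers, since their tags are not the labels' replicate numbers.

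Each deposited signal column is a read count divided by 1 factor: whole reads were recovered within 0.01 of a read for 100% of values. Depths cover counting error only. The deposited DESeq2 Wald test (Benjamini-Hochberg over all genes tested, adjusted p under 0.05) is the main test; 73 genes had no p-value. These reads were also fitted anew by DESeq2 1.42.0 and by the edgeR 4.0.16 quasi-likelihood test in R 4.3.3, with a replicate block, without each library, and without each tag. Before the calls of the blocked fit were compared, pairing was checked: the labels' protocols state that AThi and ATlo were paired, and correlations of deviations were 0.21, 0.16 and 0.37 for the same tag and at most 0.03 for different tags. The spread is that between the 3 libraries of each old fraction and between 2 young samples, and p-values measure only that. Fits were tested on simulated data. Coordinates, exon lengths and overlaps came from GENCODE M21 on GRCm38. Named with values by rule are members called in any contrast, receptors, factors, the 6 highest base means, Ifit3 with Ifit3b and Gbp3 with Gbp7 as near copies, members whose fractions do not overlap, and at most 6 called pathway genes per contrast. Other members are given values outside this rule, among them Igtp, Irgm2, Iigp1 and Irgm1 for their pattern by tag, and Ifi44, Isg15 and Mx1. The members, lists and rules were chosen with earlier results of these data known, so no test over the list was made. Leaving out the libraries tagged 11, the blocked fits without a tag and the test of the tag were chosen after seeing the data.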

Additional observations from a re-analysis of the deposited data

How the results depend on the processing

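Counts of called interferon response genes moved by more than 1.5 times with the tool and the libraries used, and none of the 6 genes called in the deposited tables changed direction in the contrast that called it. Rsad2, which was called in AThi against young only without young D11 or the libraries tagged 11, ran from -0.43 to 1.23 on the log2 scale. In AThi against ATlo, 5 members were higher in the deposited DESeq2 table, 1 by edgeR with either scaling, 3 at an adjusted p under 0.01, 1 without the libraries tagged 12 and 3 without those tagged 11. With the replicate block DESeq2 gave 10 and edgeR 1, and the blocked DESeq2 fit without the libraries tagged 12 gave 1. Leaving out 1 library at a time gave 2 to 6. In AThi against young, 1 was higher in the deposited table, 0 by edgeR with either scaling, 0 without the libraries tagged 12 and 2 without those tagged 11, and leaving out 1 library gave 0 to 2. In ATlo against young, the 1 higher call became 0 by edgeR with either scaling and 0 without the libraries tagged 12. The 1 lower call became 0 in those same settings and 2 without the libraries tagged 11, and leaving out 1 library gave 0 to 3. Young and old samples share only tag numbers. With that replicate block, DESeq2 gave 8 higher for AThi against young (3.10% of all genes). These were Ifi47, Igtp, Iigp1, Irgm2, Ifitm3, Zbp1, Parp9 and Dtx3l. For ATlo against young it gave 3 higher (2.80%), which were Ifi47, Igtp and Irgm2, and 1 lower, Ifitm1 (3.09%). The blocked edgeR fit gave 2 higher for AThi, Igtp and Irgm2 (0.633%). For ATlo it gave 0 higher (0.402%) and 0 lower (0.161%). Leaving out libraries also leaves fewer samples in the fit, and the cause of the other shifts was not tested. The block takes the spread between tags out of the residual variation. No member was called lower in AThi against ATlo or against young in any setting. The members' median log2 fold change ran from 0.05 to 0.40 over the settings in AThi against ATlo, from -0.04 to 0.22 in AThi against young and from -0.23 to -0.06 in ATlo against young. Depth limits Irf8, Ifit3, Ifit3b, Mx1, Mx2, Oas2 and Oasl1, whose lowest libraries held few reads. TMM and deposited scaling differed by -0.0147 to 0.00404 per library on the log2 scale.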

Other observations

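The authors' deposited table of upstream regulators for AThi against ATlo lists interferons with activation scores of opposite sign. For these scores, no source used here names the program that computed each score from its target genes. Interferon alpha had an activation score of -2.43 and the state inhibited, with an overlap p-value of 6.05e-05 over 26 targets. IFNB1, interferon beta, had a score of 2.76 and the state activated, with a p-value of 0.0421 over 11 targets. IFNG had 1.52 with no state given, with a p-value of 0.000224 over 52 targets. Irgm1, a member of the genes described here, was listed as activated with a score of 3.05 and a p-value of 3.66e-16 over 21 targets, while its own log2 ratio in that table was 0.26. The receptor chain IFNAR1 had a score of 0.70, DDX58 1.67 and TLR3 2.19, the last with the state activated and a p-value of 0.292. The 726 regulators of the authors' deposited table name 399 different targets, and by symbol 0 of the 51 interferon response genes are among them. A gene listed under another name would be missed. The 368 targets matched by symbol had log2 fold changes whose smallest size was 0.75, and adjusted p of up to 0.377 by DESeq2. Of the 5 members called in that contrast, Ifit1 (0.92) and Gbp5 (0.76) lay above that size and Ifitm1, Ifngr1 and Parp14 below it. None of the 5 was found as a target by symbol. Among the 26 targets of interferon alpha are cell cycle genes such as CCNA2, CDC20 and TACC3, and the induced genes GBP6 and TLR3. The 21 targets of Irgm1 are mostly cell cycle genes, such as AURKB, BUB1, CCNB1 and MKI67, and also hold GBP6 and TLR3.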
